A study of Talaromyces pinophilus with 6 samples.

Results

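Zinc cluster genes of the filamentous fungus *Talaromyces pinophilus* were followed in 2 strains, Δ*TpKu70* (the parent) and Δ*TP05746* (the mutant derived from it). Zinc cluster proteins are transcription factors found almost exclusively in fungi. Cysteines of a short motif hold zinc ions, and the folded motif binds DNA, often at paired CGG triplets. Gal4, which turns on galactose use in baker's yeast, is the classical example, and relatives in moulds act on the use of starch, cellulose and xylan, on nitrogen use, on secondary metabolism and on sporulation. The deleted gene *TP05746* itself encodes a factor of this family.

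The genes were taken from the study's own list of genes that it called different between these strains, of which 1998 entries were at hand. The 92 genes described here are those whose transcription factor entry is InterPro's zinc cluster domain (IPR001138), out of 11632 genes listed in any library and out of 169 entries of that list with a transcription factor domain of any kind. Of the 96 genes with the domain entry, *TP05746*, the xylanase regulator gene *TP02627* and a few others were set aside. Because the list was drawn up from these same libraries and this same contrast, the differences below describe the genes and test nothing about them. The entries at hand are only the first part of that list, so the 92 genes are not all of its zinc cluster genes. Those further down the list, or not on it, were not analysed here. *TP03313*, which is named as a zinc cluster protein in its annotation but has no domain entry, was just outside the rule, with 46, 39 and 34 expected counts in the parent and 28, 30 and 27 in the mutant.

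Both strains were made in *T. pinophilus* 1-95 and both lack *TpKu70*, a gene of DNA end joining whose loss makes targeted deletion easier. Δ*TP05746* additionally lacks *TP05746*. Mycelium, the mat of fungal hyphae, was grown on glucose, moved to soluble corn starch at 1% (w/v) and collected 12 h later, and 3 RNA libraries were sequenced from each strain. Neither the number of cultures nor the number of transformants behind the libraries is given in the sources used here, so the spread between libraries may be partly technical. No markers of mycelium were at hand, and the label was not checked against any. As RNA of whole mycelium was sequenced, a lower level in every hypha and fewer hyphae with the transcript cannot be told apart.

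The deposited expected count of a gene is the number of fragments that RSEM assigned to it, with decimals where reads are shared between gene models. The libraries held 4091718 to 4696455 expected counts. Levels within a gene are given as CPM, counts divided by a TMM-scaled library size, which corrects for a few very abundant genes taking up a library, with mean ± SD (n = 3). The deposited FPKM, which is divided by gene length but not TMM-scaled, is used where genes are compared with each other. The 3 parental libraries gave 135, 42 and 28 expected counts for *TP05746*, and all 3 mutant libraries listed it at 0. It was at least 33.7-fold lower there, and at least 19.9-fold lower without Δ*TpKu70* replicate 1, with 3 counts per library as the floor and only counting error covered. Across genes, Δ*TpKu70* replicate 1 stood apart, with correlations of log2 CPM of 0.898 and 0.89 to the remaining parental libraries, while the correlation between these was 0.965.

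Most of the zinc cluster genes that could be tested had lower transcript levels in Δ*TP05746*. Of the 92 genes, 83 were listed in at least 1 library and 71 could be tested, having reached 1 FPKM or more in 3 or more of the 6 libraries. The threshold was an adjusted p no higher than 0.05 in edgeR's quasi-likelihood test (Benjamini-Hochberg over all genes tested) together with a log2 fold change of 1 or more in size. Of the 71 genes, 52 were lower, 8 were higher and 11 were not past the threshold. Among all 8522 genes tested, 38.7% were past the threshold, 20.5% lower and 18.2% higher. Since the rule used this contrast, nothing is read from these shares. In CPM, the levels of the strains did not overlap for 58 genes that were lower and 10 that were higher in Δ*TP05746*. Of all genes, 29.9% and 32.1% did not overlap in those directions. These counts also rest on the TMM scaling, since *TP00982* and *TP01086*, both among the 58, overlapped in the unscaled FPKM. The median log2 fold change of the 71 genes was −1.64, and it was 0.03 over all genes tested.

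The split between lower and higher depended on the scaling of the libraries. When library totals replaced the TMM factors, 31 of the genes were lower and 10 higher. Over all genes tested, 1059 were then lower and 3290 higher, against 1749 and 1550 with TMM factors, and their median moved from 0.03 to 0.85 on the log2 scale. The median of the 71 genes was then −0.83. On the same scale taken relative to the median of all genes, 38 were lower and 9 higher (1169 and 1784 of all genes). Each of the 52 lower and 8 higher genes kept its direction under both. This says little, because genes past a fold minimum of 1 could hardly change sign when the median moved from 0.03 to 0.85. Without Δ*TpKu70* replicate 1, 57 genes were lower and 7 higher (2011 and 2137 of all genes).

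Most tested genes reached the filter level of 1 FPKM in some library of each strain, and those that did not had to differ. The level was reached in both strains by 62 genes, of which 47 were lower, 4 were higher and 11 were not past the threshold. A further 5 genes, all lower, passed through Δ*TpKu70* alone (*TP00157*, *TP00219*, *TP01410*, *TP02584* and *TP03631*). The other 4 genes, all higher, passed through Δ*TP05746* alone (*TP00133*, *TP02049*, *TP03138* and *TP03500*). The 21 genes left untested comprise 12 below the filter and 9 that were not listed in the files used here.

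**Figure D1:**
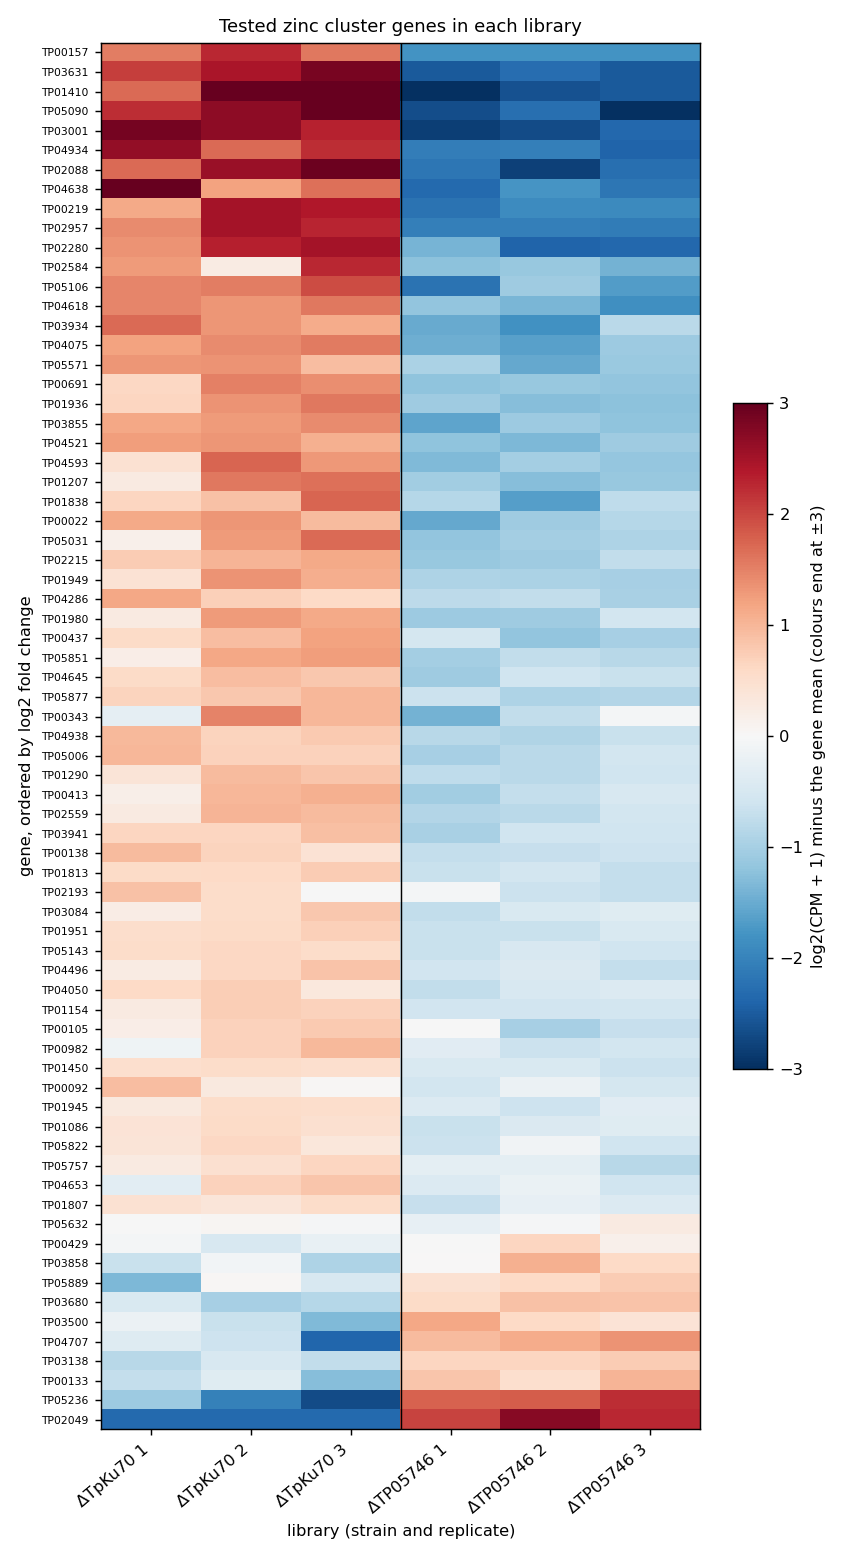
Each row is 1 of the 71 tested zinc cluster genes, ordered by log2 fold change, and each column is a library; the colour is log2(CPM + 1) minus the mean of the gene over the 6 libraries, with colours ending at ±3. The 52 lower genes are mostly red in Δ*TpKu70* and blue in Δ*TP05746*. Δ*TpKu70* replicate 1 is often paler than replicates 2 and 3, and for *TP00982* it lies slightly below the mean of the gene.

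The zinc cluster genes together took a smaller part of all transcripts in the mutant. Their summed expected counts were 0.430%, 0.468% and 0.455% of the library in Δ*TpKu70* replicates 1, 2 and 3, and 0.187%, 0.220% and 0.212% in Δ*TP05746*. The strain means were 0.451% ± 0.0196 and 0.206% ± 0.0173 (SD, n = 3), and the libraries of the strains did not overlap. The number of genes with a count was similar, at 75, 74 and 69 genes in Δ*TpKu70* and 74, 76 and 78 in the mutant. The number of genes with an FPKM of at least 10 was 36, 37 and 35 in the parent and 18, 22 and 23 in the mutant, so that fewer of the genes were at a moderate or high level in the mutant. The median FPKM of the listed genes was 8.28 ± 0.469 in the parent and 4.33 ± 0.22 in the mutant. In the same libraries the median FPKM over all genes tested was 11.3 ± 2.08 and 18.8 ± 0.588, and over the other transcription factor genes of the list 9.10 ± 0.931 and 14.4 ± 1.93. On this unscaled FPKM, the median of the zinc cluster genes was thus lower in the mutant, and both other medians were higher.

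Per length, the most abundant zinc cluster gene of the parental strain was *TP03855*, annotated only as a hypothetical protein. Its FPKM was 157, 142 and 145 in Δ*TpKu70* replicates 1, 2 and 3 and 32.6, 48.9 and 44.0 in the mutant. All mutant libraries were below all parental ones, and *TP03855* nevertheless ranked first by mean FPKM in both strains. In counts it fell from 2647, 2384 and 2387 to 521, 783 and 698, which was 714 ± 63.9 against 120.3 ± 20.6 CPM (log2 fold change −2.57, standard error 0.23). Each standard error is the size of the log2 fold change over the root of the F statistic.

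*TP02088*, annotated as a putative C6 transcription factor, another name for the zinc cluster family, showed a far steeper drop. It had 1537, 2368 and 2767 expected counts in the parent and 135, 91 and 131 in the mutant. Levels were 662 ± 265 and 21.6 ± 4.98 CPM (log2 fold change −4.94, standard error 0.43), with replicate 1 the lowest parental library and still above every mutant library. By mean FPKM it ranked second among the listed zinc cluster genes in Δ*TpKu70* (143 ± 42.0) and 29th in Δ*TP05746* (7.99 ± 1.65). *TP02088* and *TP03855* together supplied 22.4% ± 1.93 of all zinc cluster counts in Δ*TpKu70* and 9.15% ± 0.497 in the mutant.

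Other genes from the top of the parental order also left it. *TP02280*, a hypothetical protein with the zinc cluster entry alone, had 337, 557 and 572 expected counts in the parent and 62, 30 and 30 in the mutant. Its level was 145 ± 54.9 against 7.42 ± 3.60 CPM (log2 fold change −4.29, standard error 0.47), and it went from rank 3 to rank 23 by FPKM. *TP03001*, annotated as a putative transcriptional regulatory protein, had 1707, 1230 and 859 expected counts in the parent and 38, 45 and 56 in the mutant. Its level was 356 ± 70.5 against 8.38 ± 1.59 CPM (log2 fold change −5.40, standard error 0.28), from rank 4 to rank 42. Here Δ*TpKu70* replicate 1 was the highest library, not the lowest, and some parental counts of *TP03001* had decimals, so a part of its reads was shared with another gene model. *TP02957*, chosen after its values were seen, took rank 5 in the parent and 39 in the mutant, with 532, 926 and 736 against 58, 62 and 58 expected counts (log2 fold change −4.32, standard error 0.33).

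Genes with smaller drops, or with higher levels, moved up the order in Δ*TP05746*. *TP04496*, a hypothetical protein among the 5 highest by FPKM over all libraries, had 554, 597 and 641 expected counts in the parent and 408, 482 and 383 in the mutant. Levels were 175 ± 36.5 and 76.7 ± 7.51 CPM (log2 fold change −1.19, standard error 0.21), and it went from rank 10 to rank 3. Its FPKM was 47.3 ± 4.09 against 35.1 ± 4.15, and with library totals its log2 fold change was −0.33 and no longer past the threshold. *TP03858*, chosen after its values were seen, had 150, 189 and 95 expected counts in the parent and 320, 718 and 503 in the mutant, and took rank 2 in the mutant after rank 36 in the parent. Neighbours among the 5 highest of the mutant, from *TP03855* (41.8 ± 8.38 FPKM) through *TP03858* (36.5 ± 14.1 FPKM) to *TP01154* (29.7 ± 0.91 FPKM), had overlapping ranges of mean ± SD. The same held for neighbours among the 5 highest of the parent, from *TP03855* (148 ± 7.66 FPKM) to *TP02957* (56.3 ± 15.3 FPKM). Even so, *TP03001* was above *TP02957* in each parental library.

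**Figure D2:**
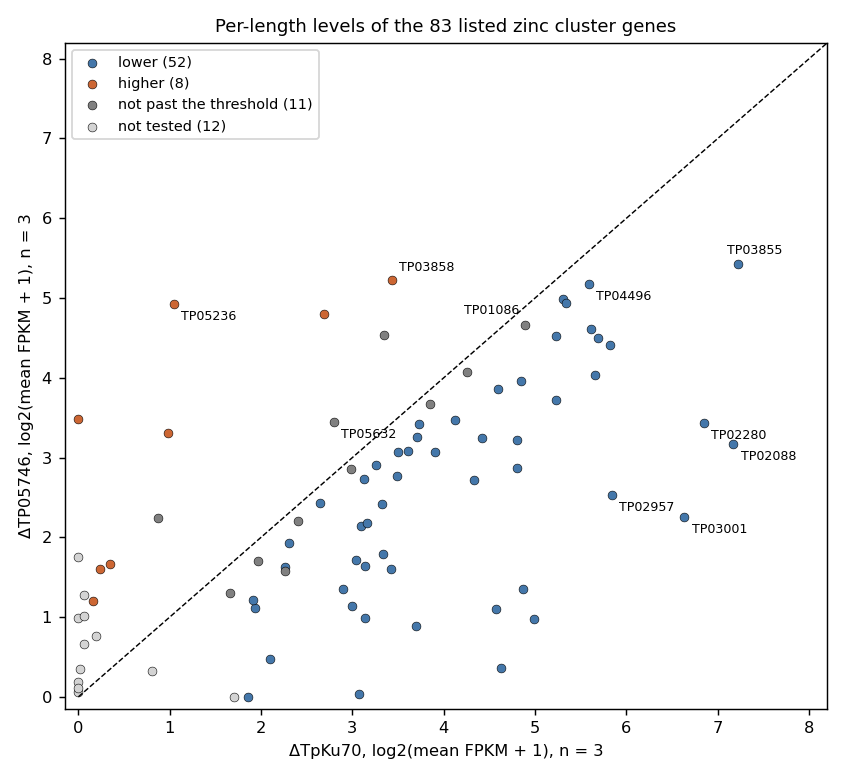
Each point is 1 of the 83 listed zinc cluster genes, with the mean level in Δ*TpKu70* on the x axis and in Δ*TP05746* on the y axis, both as log2(mean FPKM + 1) over 3 libraries; the dashed line marks equal levels and the colours give the result of the test. *TP02088*, *TP02280*, *TP03001* and *TP02957*, ranked 2 to 5 in Δ*TpKu70*, lie well below the line, while *TP05236* and *TP03858* are the highest of the genes above it.

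The largest drops took genes from a readable level to almost no reads. *TP00157*, a hypothetical protein that also carries the fungal specific transcription factor domain, had 37, 53 and 29 expected counts in the parent and was listed at 0 in every Δ*TP05746* library. It was at least 21.1-fold lower in the mutant, and at least 17.1-fold lower with any 1 parental library left out. *TP03631*, annotated as a C6 transcription factor, had 94, 102 and 123 expected counts in the parent and a single count in 1 of the 3 Δ*TP05746* libraries. Its level was 505-fold lower in the mutant, with an exact 95% counting interval of 90.0- to 20001-fold. Without that library, Δ*TP05746* replicate 2, the mutant was at 0 and the gene was at least 56.6-fold lower, with 3 counts per library as the floor. *TP01410*, chosen after its values were seen, was of the same kind, with 161, 522 and 412 against 0, 6 and 6.64 expected counts, some of them shared with another gene model. Over the 68 tested genes with more than 3 counts in each strain, log2 fold changes ran from −7.09 (*TP01410*) to 4.11 (*TP05236*).

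Others kept a low but measurable level. *TP04934*, a hypothetical protein, had 323, 138 and 180 expected counts in the parent and 11, 12 and 8 in the mutant, or 59.8 ± 19.3 against 1.87 ± 0.363 CPM (log2 fold change −4.98, standard error 0.36). *TP00219*, annotated as a C6 transcription factor and chosen after its values were seen, had 115, 251 and 213 against 10, 15 and 14 expected counts (log2 fold change −4.60, standard error 0.46). Every parental library was above every mutant library for both genes. Across the 52 lower genes, 13 had an absolute log2 fold change of 1 to 1.5, 12 of 1.5 to 2, 13 of 2 to 3, 9 of 3 to 5 and 5 above 5. The genes nearest the fold minimum were *TP01945* (−1.0) just inside it and *TP01086* (−0.98) just outside.

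In some genes the annotated name and the zinc cluster entry do not describe the same kind of protein, and which applies was not tested. *TP05090* is annotated as an MFS transporter, a class of membrane carriers of sugars, drugs and other small molecules. It had 403, 461 and 540 expected counts in the parent and 13, 20 and 9 in the mutant, or 138 ± 38.6 against 2.52 ± 0.939 CPM (log2 fold change −5.75, standard error 0.38), with no overlap. *TP04638* is annotated as a putative chitosanase, an enzyme that cuts chitosan, and had 861, 153 and 191 expected counts in the parent and 16, 28 and 19 in the mutant. Its parental level of 107 ± 91.7 CPM rested largely on replicate 1, against 3.78 ± 1.00 CPM in the mutant. The log2 fold change was −4.81 (standard error 0.70) and −3.83 without that library.

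The remaining names of this kind belong to smaller changes. *TP01949*, annotated as a cysteine-binding protein, had 425, 671 and 509 expected counts in the parent and 218, 225 and 213 in the mutant, with some reads shared (157 ± 48.2 against 39.6 ± 1.07 CPM, log2 fold change −1.99, standard error 0.26). *TP05877*, annotated as an aldo-keto reductase, a family that reduces aldehydes and ketones, had 72, 66 and 69 against 35, 30 and 30 expected counts (log2 fold change −1.79, standard error 0.27, and −0.96 with library totals). *TP00092*, annotated as a putative NADH dehydrogenase, had 43, 22 and 16 against 17, 25 and 18 expected counts. At 7.46 ± 2.80 and 3.60 ± 0.671 CPM it was not past the threshold (log2 fold change −1.05, standard error 0.38). Of the 5 genes with such names, 4 were lower and 1 was not past the threshold.

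**Figure D3:**
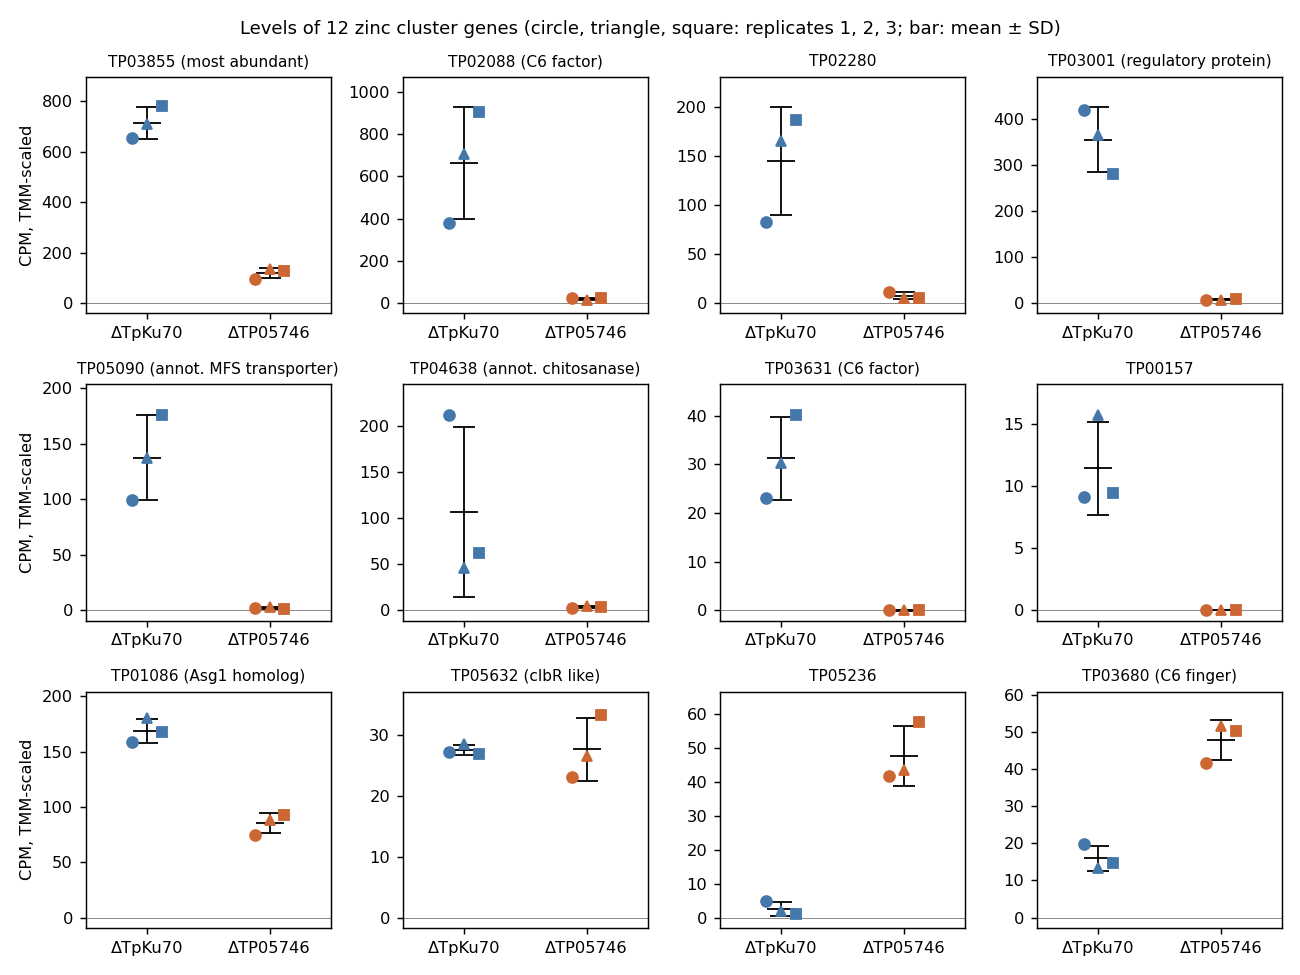
Each panel shows the CPM (TMM-scaled) of 1 zinc cluster gene in the 3 Δ*TpKu70* and the 3 Δ*TP05746* libraries, with circles, triangles and squares for replicates 1, 2 and 3 and bars for the mean ± SD. In the upper 8 panels every parental library lies above every mutant library, *TP04638* has its highest level in Δ*TpKu70* replicate 1, the strains overlap for *TP05632*, and *TP05236* and *TP03680* are higher in Δ*TP05746*.

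Some genes bear names of regulators that were studied in other fungi. *TP01086* is annotated as a homolog of Asg1, a zinc cluster factor of stress response genes in baker's yeast. It had 643, 606 and 513 expected counts in the parent and 402, 504 and 513 in the mutant, or 169 ± 11.0 against 85.4 ± 9.28 CPM. Although the libraries of the strains did not overlap in CPM, its log2 fold change of −0.98 (standard error 0.17) missed the fold minimum. Several alternatives that shifted it slightly, median-ratio scaling and DESeq2 among them, placed it just past the fold minimum and the threshold. By FPKM its levels were close, at 28.7 ± 2.88 and 24.2 ± 3.20.

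*TP05632* is annotated as a ClbR-like protein. ClbR in *Aspergillus aculeatus* is a zinc cluster activator of cellulase and xylanase genes. *TP05632* had 110, 95.5 and 82.1 expected counts in the parent and 124, 151 and 183 in the mutant, with reads shared with another gene model. Levels of 27.5 ± 0.831 and 27.6 ± 5.13 CPM overlapped (log2 fold change 0.01, standard error 0.21), whereas the unscaled FPKM was 5.94 ± 0.801 and 9.90 ± 1.98. The size of its difference thus rests on the scaling. *TP03714*, annotated as similar to RosA, a repressor of sexual development in *Aspergillus nidulans*, was below the filter, with 0 expected counts in the parent and 0, 27.2 and 44.4 in the mutant. Its signal was in only 2 of the mutant libraries, and both counts had decimals.

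*TP01207* is annotated as the putative transcriptional regulatory protein C3C7.04 and was among the 8 most abundant zinc cluster genes of the parent by FPKM. It had 490, 1008 and 961 expected counts in the parent and 255, 231 and 246 in the mutant. Levels were 245 ± 108 and 44.2 ± 3.60 CPM (log2 fold change −2.47, standard error 0.38), and Δ*TpKu70* replicate 1 lay between the other parental libraries and the mutant. Over the 8 genes annotated with a regulator name other than a zinc cluster name, 5 were lower, none was higher and 3 were not past the threshold. The third gene of those 3, after *TP01086* and *TP05632*, was *TP02193* (log2 fold change −1.24, standard error 0.45). Among the 20 genes with a zinc cluster name, 9 were lower, 3 higher and 3 not past the threshold, 2 were below the filter and 3 were not listed, *TP03066* among them. Of the 59 hypothetical proteins, 34 were lower, 5 higher and 4 not past the threshold.

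Grouped by domain, genes that also carry the fungal specific transcription factor domain had the lower median. This domain (IPR007219) lies outside the DNA-binding motif in many zinc cluster factors. Of the 48 genes with both domains and no C2H2 zinc finger, 28 were lower, 2 were higher and 6 were not past the threshold, 5 were below the filter and 7 were not listed. The median log2 fold change of the 36 tested genes was −2.11. With the 3 C2H2 genes that also carry this domain (*TP01813*, *TP02215* and *TP03084*) there were 51 genes, of which 39 were tested and 31 were lower, with a median of −1.98. Of the 40 genes with the zinc cluster entry alone, 20 were lower, 6 were higher and 5 were not past the threshold, with a median of −1.21 over 31 tested genes. These medians include the genes that passed the filter through 1 strain alone and so had to differ. With both domains these were *TP00157*, *TP00219*, *TP01410* and *TP03631*, all lower, and *TP03138*, which was higher. With the zinc cluster entry alone they were *TP02584*, which was lower, and *TP00133*, *TP02049* and *TP03500*, all higher. Medians without these genes were not taken, and whether the classes differ was not tested.

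The 4 genes that combine the zinc cluster with a C2H2 zinc finger, a different DNA-binding fold held by a pair of cysteines and a pair of histidines, were all lower. *TP04618* had 116, 87 and 95 expected counts in the parent and 20, 18 and 11 in the mutant, or 28.5 ± 2.57 against 2.96 ± 0.886 CPM (log2 fold change −3.26, standard error 0.32). *TP02215* had 265, 262 and 258 against 90, 101 and 123 expected counts (log2 fold change −2.0, standard error 0.21). For both, the parental libraries were close together and far above those of the mutant. *TP01813* had 209, 176 and 181 against 115, 132 and 114 expected counts (log2 fold change −1.32, standard error 0.17). *TP03084*, annotated as a C2H2 type zinc finger protein, had 26, 28 and 31 against 15, 21 and 22 expected counts (log2 fold change −1.24, standard error 0.33). These smaller changes were −0.49 for *TP01813* and −0.39 for *TP03084* with library totals and then not past the threshold, and *TP03084* was also not past it without any 1 of 5 libraries, Δ*TpKu70* replicate 1 being the exception.

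The other transcription factor genes of the same list were chosen on the same contrast and were more evenly split. Of 72 such genes, 55 were tested, 28 were lower, 19 were higher and 8 were not past the threshold, with a median log2 fold change of −1.18. They include 15 genes with the fungal specific transcription factor domain alone, of which 10 were tested and all 10 were lower. The more even split is thus that of the whole set and not of this part. Expressed as shares of the genes tested, 50.9% of these and 73.2% of the zinc cluster genes were lower, and 34.5% and 11.3% were higher. Both sets share all libraries and the selection on this contrast, so the difference was not tested.

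**Figure D4:**
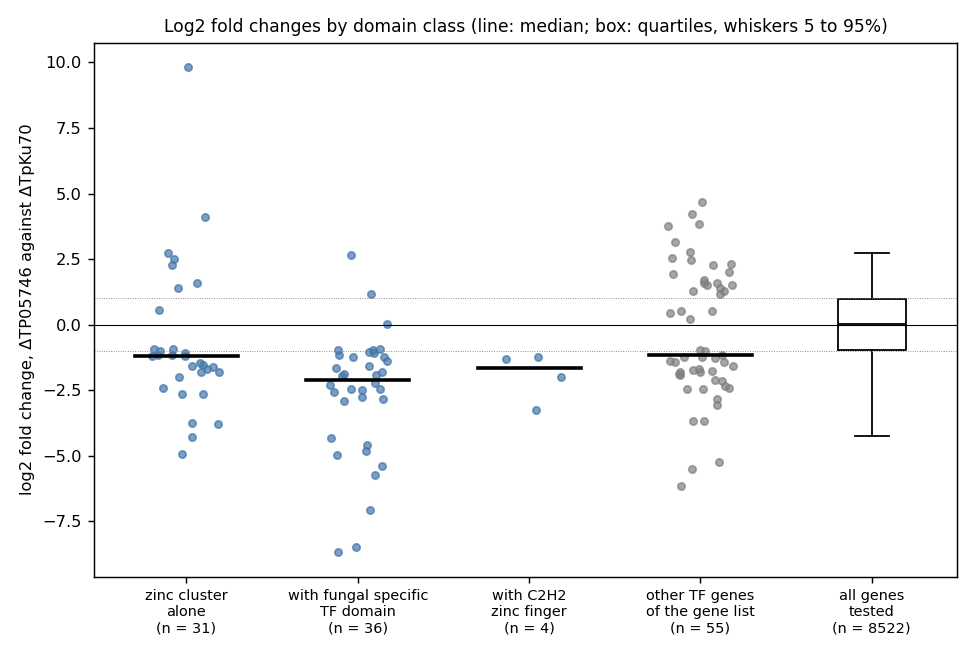
Points are log2 fold changes (Δ*TP05746* against Δ*TpKu70*) of tested zinc cluster genes in 3 domain classes and of the other transcription factor genes of the list, with a line at each median; the box shows the quartiles of all 8522 genes tested, with whiskers from the 5th to the 95th percentile, and dotted lines mark the fold minimum. Medians are −1.21 for the zinc cluster alone, −2.11 with the fungal specific transcription factor domain, −1.66 with a C2H2 zinc finger and −1.18 for the other transcription factor genes.

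The 8 higher genes were, with few exceptions, low or absent in the parental strain. *TP05236*, a hypothetical protein, had 20, 7 and 3 expected counts in the parent and 224, 249 and 319 in the mutant. Its level was 2.66 ± 2.04 against 47.7 ± 8.76 CPM (log2 fold change 4.11, standard error 0.52), and by FPKM it went from rank 66 to rank 6 of the listed genes. Without Δ*TpKu70* replicate 1, which had the highest parental level, the log2 fold change was 4.91. *TP02049*, also a hypothetical protein, had no count in any parental library and 105, 186 and 129 expected counts in Δ*TP05746*. It was at least 28.9-fold higher in the mutant, and at least 24.6-fold higher with any 1 mutant library left out, but all of these counts had decimals, so its reads could belong in part to another gene model.

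*TP03680* and *TP03858*, both chosen after their values were seen, were the only higher genes with more than 20 expected counts in every parental library. *TP03680*, annotated as a C6 finger protein, had 80, 45 and 45 expected counts in the parent and 223, 295 and 277 in the mutant (15.9 ± 3.34 against 47.8 ± 5.41 CPM, log2 fold change 1.58, standard error 0.23). *TP03858* was higher by a log2 fold change of 1.15 (standard error 0.35), at 41.4 ± 13.2 against 92.2 ± 33.0 CPM. Neither gene overlapped between the strains.

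The 4 other higher genes had at most 12 expected counts in any parental library. *TP00133*, a C6 finger protein, had 2, 3 and 0 expected counts in the parent and 18, 14 and 22 in the mutant (log2 fold change 2.72, standard error 0.70). *TP03138* had 1, 2 and 1 against 13, 14 and 15 expected counts (log2 fold change 2.64, standard error 0.47). *TP04707*, annotated as a C6 transcription factor, had 12, 8 and 0 against 48, 58 and 67 expected counts (log2 fold change 2.49, standard error 0.80). *TP03500* had 5, 2 and 0 against 25, 16 and 13 expected counts (log2 fold change 2.29, standard error 0.76). The strains did not overlap for any of the 4. Without Δ*TpKu70* replicate 2 the log2 fold change of *TP00133* was 3.46, and without Δ*TpKu70* replicate 1 that of *TP03500* was 3.28. *TP00133*, *TP03500*, *TP03858* and *TP04707* were no longer past the threshold with at least 1 library left out, which leaves 4 of the 8 higher genes called with each library left out in turn.

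Among the 11 tested genes not past the threshold, 3 overlapped between the strains in CPM, namely *TP00343*, *TP04653* and *TP05632*. *TP04653* was the gene whose mean FPKM was most nearly equal in the strains by ratio. It had 50, 86 and 88 expected counts in the parent and 61, 77 and 55 in the mutant, or 22.2 ± 8.72 against 11.6 ± 1.77 CPM (log2 fold change −0.93, standard error 0.37). By FPKM it stood at 6.91 ± 2.04 and 6.21 ± 1.08. Without Δ*TpKu70* replicate 1, its lowest parental library, the log2 fold change was −1.23 and past the threshold. Of the 11 genes, 7 had an absolute log2 fold change below 1.

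The coefficient of variation in the parent was larger for the higher genes, most of which had few counts there. The median coefficient of variation of the 52 lower genes was 22.2% in Δ*TpKu70*, and it was 15.6% over the 51 with a level above 0 in Δ*TP05746*. For the higher genes it was 76.5% over the 7 with a parental level above 0, and 21.0% over all 8 in the mutant. In the parent it was 20.9% for *TP03680* and 31.8% for *TP03858*, the only higher genes with more than 20 counts in every parental library. The part of counting error in the spread of the others was not tested. Δ*TpKu70* replicate 1 lay between the other parental libraries and all mutant libraries for 38 of the 52 lower genes (73.1%), where 64.3% of all lower genes did so. For the higher genes it was 4 of 8. On the way from the mean of the other parental libraries to the mutant mean, on log2(CPM + 1), replicate 1 had gone a median fraction of 0.143 over the 60 genes past the threshold and 0.217 over all such genes. The part that this library plays in the other differences was not tested.

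Gene numbers of *T. pinophilus* run close together for some of the genes. No source at hand states that the numbers follow the order on the chromosomes, so only the numbers are compared. There were 15 pairs with numbers at most 10 apart, made up of 27 genes. In 8 of these pairs both genes were past the threshold, 6 pairs with both lower, 0 with both higher and 2 with opposite directions. Since 52 of the 60 zinc cluster genes past the threshold were lower, pairs with both lower would be the commonest kind under any pairing. Nothing about neighbours is read from these counts.

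*TP01936*, *TP01945*, *TP01949* and *TP01951* formed the longest run, and all were lower, with log2 fold changes of −2.64, −1.0, −1.99 and −1.23. *TP04934* and *TP04938* (−4.98 and −1.64), *TP03934* and *TP03941* (−2.94 and −1.47) and *TP04638* and *TP04645* (−4.81 and −1.81) were also lower in pairs. *TP03855* and *TP03858*, 3 numbers apart, went opposite ways (−2.57 and 1.15). So did *TP00133* and *TP00138*, 5 numbers apart, with 2.72 and −1.41.

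Genes below the filter had few reads and gave no comparison. *TP05083* had 3, 24 and 19 expected counts in the parent and no count in any mutant library, and *TP04895*, annotated as a C6 finger protein, had 1, 0 and 0 against 8, 8 and 6. *TP05497* had 58.4 expected counts in Δ*TP05746* replicate 2 and at most 1.79 in any other library, and *TP00460* had 45.3 in the mutant replicate 1 and 0 elsewhere. Of the 17 zinc cluster genes with decimals in a count, 9 were in this untested group, 5 were lower, 1 was higher and 2 were not past the threshold.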

How the data were processed

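RNA of *T. pinophilus* mycelium was sequenced in 3 libraries of Δ*TpKu70* and 3 of Δ*TP05746*, grouped by their labels. The authors mapped reads to the strain 1-95 genome with BWA 0.7.10-r789 and Bowtie2 2.1.0 and deposited RSEM 1.2.12 expected counts, unscaled. The authors deposited FPKM beside them, scaled by gene length and library size. A gene not listed in a library was read as 0. The submitters' processing notes also name DESeq2.

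Expected counts were rounded to whole numbers, scaled with TMM factors (0.877, 0.717 and 0.667 in Δ*TpKu70*, 1.31, 1.37 and 1.33 in Δ*TP05746*) and tested with edgeR's two-sided quasi-likelihood test over the 8522 genes that reached 1 FPKM in 3 or more libraries. Library totals of 4091718 to 4696455 set the precision. Tools were R 4.3.3, edgeR 4.0.16, limma 3.58.1, DESeq2 1.42.0 and Python 3.11.15. The test was checked on simulated data.

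The genes and lists were chosen with earlier results of these data known. The text names genes with an informative annotation, the 5 largest increases and decreases past the threshold with whole counts and no overlap, the 5 highest by mean FPKM, those at 0 in a strain and past the threshold, the one with mean FPKM most nearly equal in the strains, and those with a C2H2 finger (29 in all). Any other gene was picked with its values in view, which the text does not say each time, or belongs to a group that it lists. No gene ID matched the reference table at hand, made for another strain, which is why coordinates and sequences are left out. Of the alternatives, 18 were set with the design and 1, library totals relative to the median of all genes, was chosen after seeing the data.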

Additional observations from a re-analysis of the deposited data

How the results depend on the processing

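All 52 lower and 8 higher zinc cluster genes kept their direction in every alternative that tested them. Each was past a fold minimum of 1, so the shifts of the median given below could hardly reverse it. Counts of lower genes fell from 52 to 31 with library totals, to 34 with limma on log2(FPKM + 0.1), to 28 with limma on log2(FPKM + 1) and to 34 with the ratio of mean FPKM and unadjusted p. This last setting resembles the rule by which the study drew up its list. With 9 genes higher under it, not all of the 71 tested genes met it here. Over all genes, the lower ones fell from 1749 to 1059, 1107, 1069 and 1266 in the same order. The median of all genes tested moved to 0.85 with library totals and to 0.79 and 0.69 with limma at those pseudocounts. Counts of higher genes fell from 8 to 5 with an FPKM of at least 5 (55 genes tested) and to 4 in the test against the fold minimum. With an FPKM of at least 5, only 5 of the 8 were tested. Over all genes, the higher ones fell from 1550 to 1262 and to 741 under the same alternatives. DESeq2 gave 54 lower and 8 higher. With each library left out in turn, lower genes ranged from 48 to 57 and higher genes from 4 (without Δ*TP05746* replicate 3) to 7. They were 5 without Δ*TP05746* replicate 1 and 5 without replicate 2. Of the lower genes, 48 kept their call with every library left out, and *TP00105*, *TP00982*, *TP01945* and *TP03084* did not. Over 15 settings, those with a library left out among them, only 21 of the 52 lower and 2 of the 8 higher genes were called in every one. A gene that a setting did not test counts there as not called. Same-numbered libraries did not deviate together (correlations of −0.08, −0.04 and 0.01), and with the replicate number as a block 50 genes were lower and 5 higher. For the named genes, 377 of 422 values under an alternative stayed on the same side of the threshold, 35 were no longer past it and 10 were newly past it. Genes with few reads in a strain limit these counts. The causes of these shifts were not tested.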

Other observations

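The 72 other transcription factor genes of the list include 15 with the fungal specific transcription factor domain and no zinc cluster entry. Of these, 10 were tested, all 10 were lower in Δ*TP05746* (9 without overlap between the strains) and the median log2 fold change was −2.46. They were selected by the study on the same contrast, so this is a description. *TP03313*, named as a zinc cluster protein but without a domain entry, stood at 11.3 ± 0.25 CPM in Δ*TpKu70* and 5.12 ± 0.201 CPM in the mutant (log2 fold change −1.14, standard error 0.26).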
